A study of Mus musculus with 30 samples.

Results

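The 10 genes described here encode mouse Toll-like receptors: Tlr1, Tlr2, Tlr3, Tlr4, Tlr6, Tlr7, Tlr9, Tlr11, Tlr12 and Tlr13. They were taken by gene symbol from a table of read counts with 25611 gene rows, and all 10 were among the 14808 genes that passed the filter on low counts. Tlr5 and Tlr8 also have rows in that table and were left out. RNA had been sequenced from dendritic cells grown out of mouse bone marrow for 6 to 7 days with FLT3L, a growth factor that drives dendritic cell development, at 200 ng/ml. The cells came from Rubcn knockout (KO) or wild-type (WT) mice. The protein made from Rubcn is needed for LC3-associated phagocytosis, in which autophagy proteins act on single-membrane phagosomes, and the study's title names cross-presentation, the display of taken-up antigen on MHC class I, as its subject. Each genotype had an untreated group and groups exposed to the protein ovalbumin (OVA) or to Jurkat cells made apoptotic, for 30 min or for 4 h. Jurkat is a line of human leukaemic T cells. With 3 libraries in each of 10 groups there were 30 libraries. The labels do not say whether the 3 libraries came from separate mice, so p-values measure only the spread between these libraries. They give 1 untreated group per genotype, which serves both times, so the 4 responses of a genotype share their controls. The labels give no age of the mice or design of the knockout allele.

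In the table's mm10 coordinates Tlr1 (gene ID 21897, chr5:64924680-64933558) and Tlr6 (21899, chr5:64953095-64960034) are neighbours on the minus strand of chromosome 5, with 4 and 2 exons in their longest coding transcripts. Tlr2 (24088, chr3:83836272-83841608, minus strand) has 3 exons, as has Tlr4 (21898, chr4:66827551-66846581, plus strand). Tlr3 (142980, chr8:45395665-45410619, minus strand) has 7 exons, and Tlr9 (81897, chr9:106222598-106226876, plus strand) has 2. The X chromosome carries Tlr7 (170743, chrX:167304926-167330571, minus strand), with 5 exons, and Tlr13 (279572, chrX:106143275-106160493, plus strand), with 3. Tlr11 (239081, chr14:50357914-50363663, plus strand) has 2 exons and Tlr12 (384059, chr4:128615446-128618619, minus strand) has 1. Counts cover whole genes and were not split by exon.

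Toll-like receptors bind conserved molecules of microbes and of damaged cells and signal through adaptor proteins to NF-kB and interferon regulatory factors. TLR2, paired with TLR1 or TLR6, and TLR4 act at the cell surface, where they sense lipoproteins and lipopolysaccharide. TLR3, TLR7, TLR9 and TLR13 sense nucleic acids from within endosomes, and TLR11 and TLR12 sense profilin of protozoan parasites there. In the mouse, plasmacytoid dendritic cells are known for high Tlr7 and Tlr9, and type 1 conventional dendritic cells for Tlr3 and Tlr11.

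The sequences shown are those just before the annotated starts of the 3 receptor genes with the largest rises (Tlr1, Tlr2, Tlr9) and the 2 with the largest falls (Tlr11, Tlr12) in WT cells given apoptotic Jurkat cells for 4 h. They come from RefSeq windows on GRCm38.p6, the assembly of the mm10 build, and run 5′ to 3′ towards the gene. RefSeq had such windows for 8 of the 10 genes, and not for Tlr4 or Tlr7. Any base that an annotated exon of the gene covers was left out, so the Tlr2 stretch is 91 bases long and the Tlr1 stretch 245, against 250 for the others. The Tlr1 stretch is chr5:64933564-64933808 (minus strand), that of Tlr2 is chr3:83841768-83841858 (minus strand), that of Tlr9 is chr9:106222348-106222597 (plus strand), that of Tlr11 is chr14:50357664-50357913 (plus strand) and that of Tlr12 is chr4:128618620-128618869 (minus strand). Capitals mark the motif matches described after the sequences.
Tlr1: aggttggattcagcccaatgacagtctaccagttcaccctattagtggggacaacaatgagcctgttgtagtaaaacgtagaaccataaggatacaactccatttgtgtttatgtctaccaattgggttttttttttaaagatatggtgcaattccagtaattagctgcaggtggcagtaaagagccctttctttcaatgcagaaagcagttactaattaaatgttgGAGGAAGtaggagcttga
Tlr2: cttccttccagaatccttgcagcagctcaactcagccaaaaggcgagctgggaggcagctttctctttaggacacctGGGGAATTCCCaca
Tlr9: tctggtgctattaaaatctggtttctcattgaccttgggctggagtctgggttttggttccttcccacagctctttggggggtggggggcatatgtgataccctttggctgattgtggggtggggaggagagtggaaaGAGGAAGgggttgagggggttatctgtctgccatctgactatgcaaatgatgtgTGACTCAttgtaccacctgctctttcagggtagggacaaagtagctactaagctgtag
Tlr11: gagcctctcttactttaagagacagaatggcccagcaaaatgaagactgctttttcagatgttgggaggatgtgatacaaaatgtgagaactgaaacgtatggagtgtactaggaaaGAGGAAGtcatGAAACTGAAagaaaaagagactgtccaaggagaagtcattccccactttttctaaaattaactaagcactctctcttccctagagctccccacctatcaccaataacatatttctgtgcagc
Tlr12: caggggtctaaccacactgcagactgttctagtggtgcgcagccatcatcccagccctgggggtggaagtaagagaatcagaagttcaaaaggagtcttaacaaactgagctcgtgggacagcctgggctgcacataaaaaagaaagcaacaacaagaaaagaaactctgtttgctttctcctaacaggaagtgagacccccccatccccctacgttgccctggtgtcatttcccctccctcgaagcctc

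Both strands of the 250 bases before each start were searched for an NF-kB consensus site, the AP-1 site TGANTCA, the paired interferon regulatory factor element GAAANNGAA and the PU.1 core GAGGAAG. Tlr1 and Tlr6 had 2 RefSeq starts each, so 10 windows were searched for the 8 genes. An NF-kB match stood before Tlr2, 173 to 163 bases upstream of its RefSeq start, while 7.25% of 32851 mouse promoters of the same length held one. Another stood upstream of the RefSeq start of Tlr3 (base 45410380 of chromosome 8), but inside the span given above for that gene. The AP-1 letters stood before Tlr9 alone among the 8 genes (6.75% of all promoters), from 58 to 52 bases upstream. The paired element stood before Tlr11 and upstream of the inner RefSeq start of Tlr6 (7.13% of all). Its Tlr6 matches lie inside the span of that gene, and the window before the outer Tlr6 start held no match. The PU.1 core stood before Tlr1, Tlr9, Tlr11 and Tlr13 (10.6% of all). No match fell before Tlr12. The NF-kB matches before Tlr2 overlap each other. A match describes letters only, and its use in these cells was not tested.

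Libraries held 9.73 M to 51.6 M counts in total (M, mega-counts), the shallowest being KO library 3 of OVA at 30 min. The median depth was 44.9 M. KO library 2 of Jurkat cells at 4 h stood apart from its replicates, with a chi-square per degree of freedom of 129 and 134 over genes, while libraries 1 and 3 of that group gave 4.98 and no pair in another group exceeded 16.7. Without it all 10 members were still called for the KO response to Jurkat cells at 4 h, and the genotype differences that rest on it are given with and without it. Levels are CPM, counts per mega-count of the library, on library sizes scaled by TMM, a method that centres the typical gene. TMM factors were 0.765 to 0.842 in the libraries given Jurkat cells for 4 h and 1.03 to 1.07 in all others. The KO libraries held less Rubcn than those of WT under every condition (72.79 ± 2.74 against 98.94 ± 4.96 CPM untreated, SD, n = 3), with no overlap between the groups in any of them. The labels do not say which part of the gene is missing, so these remaining reads check the labels only by their direction. Markers of plasmacytoid cells (10 genes, summed 3210 CPM in untreated WT), type 1 (5460 CPM) and type 2 (2090 CPM) conventional dendritic cells were all present, with none at 0. So were markers of monocytes or macrophages (4250 CPM), and, lower, those of stroma (840 CPM), neutrophils (164 CPM), basophils or mast cells (157 CPM), B cells (88.8 CPM) and T-lineage cells (88.7 CPM). Defining markers of dendritic cells were thus present beside those of other cells. In such bulk RNA, fewer cells of a type and less RNA per cell cannot be told apart.

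Counts of the receptor genes per library ran from 67 (Tlr6, in the shallowest library) to 18828 (Tlr9). Levels of different genes were compared per kb of the longest coding transcript. In untreated WT cells Tlr9, the receptor for CpG DNA, stood highest at 46.6 ± 3 CPM per kb (SD, n = 3). It was followed by Tlr7, a receptor for single-stranded RNA (35.2), Tlr3, the receptor for double-stranded RNA (32.0), and Tlr11 (28.6). Tlr12 (21.5), Tlr2 (20.1), Tlr13 (16.5), Tlr1 (10.8), Tlr4 (7.55) and Tlr6 (1.34 CPM per kb) came after them. Neighbours in this order whose libraries overlapped were Tlr7 with Tlr3 (32.8 to 38.5 against 30.0 to 34.9), and Tlr12 met Tlr2 at 20.4 CPM per kb. Untreated KO cells also had Tlr9 highest (43.1 ± 1.25) and Tlr4 and Tlr6 lowest (7.70 and 1.27 CPM per kb). There Tlr3 (31.8) came before Tlr7 (29.0), again with overlapping libraries.

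**Figure D1:**
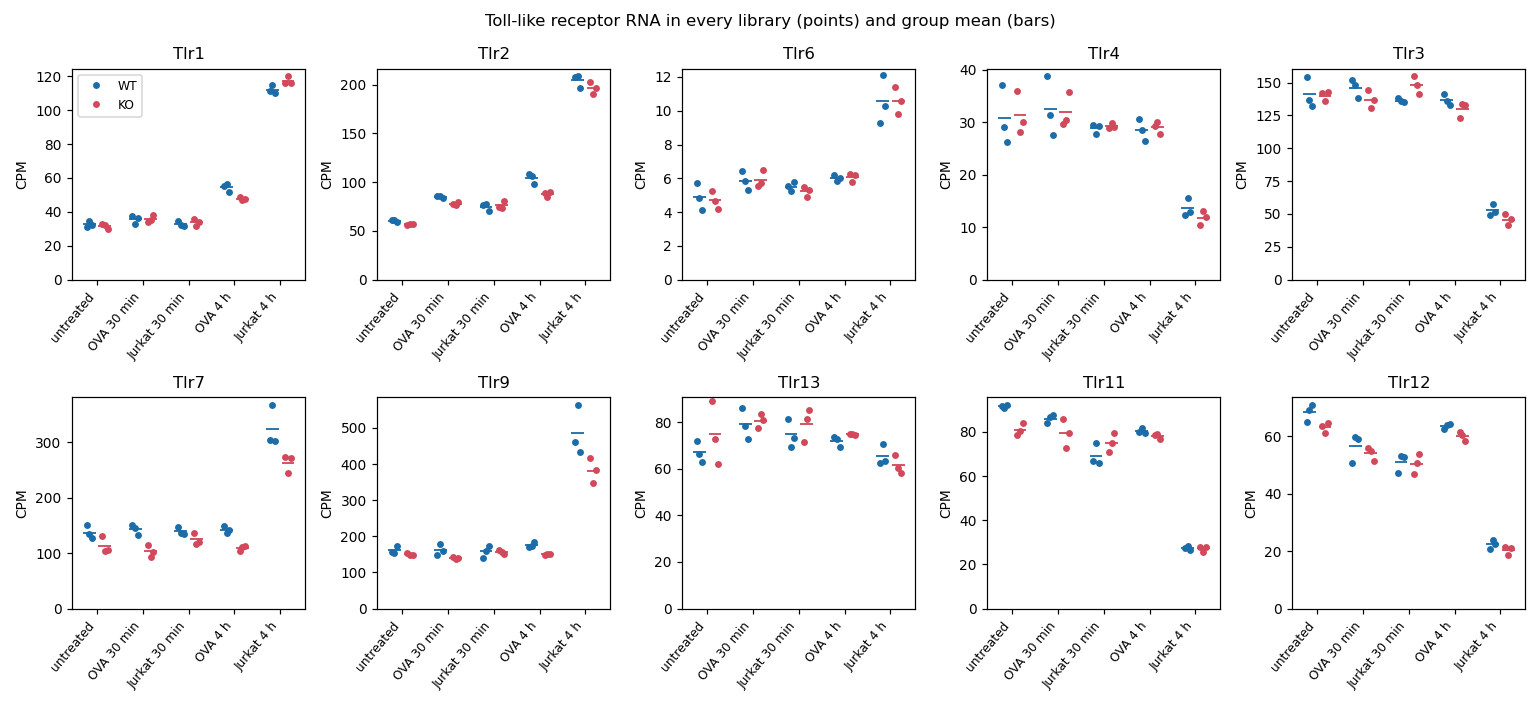
CPM of each receptor gene (vertical axis, from 0) in each of 30 libraries (points) by condition, WT in blue and KO in red, with bars at the mean of 3 libraries. Tlr1, Tlr2, Tlr6, Tlr7 and Tlr9 stood highest and Tlr3, Tlr4, Tlr11 and Tlr12 lowest in the groups given Jurkat cells for 4 h, and Tlr13 varied least, between group means of 61.4 and 80.6 CPM.

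Apoptotic Jurkat cells for 4 h gave the widest change in the family. In WT cells 5 of the 10 receptor genes rose (Tlr1, Tlr2, Tlr6, Tlr7, Tlr9) and 4 fell (Tlr3, Tlr4, Tlr11, Tlr12). In KO cells the same 5 rose, and those 4 and Tlr13 fell. This comparison called a large part of the transcriptome: 38.9% of all genes tested were higher and 40.6% lower in WT, and 37.5% higher and 41% lower in KO. The members' shares of 5 and 4 or 5 in 10 are near that background. The members' median log2 fold change was 0.54 in WT and 0.45 in KO, against -0.02 and -0.03 over all genes. These medians describe no member. In WT the rises ran from 1.11 to 1.78 and the falls from -1.74 to -1.18, with Tlr13 at -0.03. Calls are made at a false discovery rate (FDR) under 0.05 by edgeR's quasi-likelihood F test.

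Among the surface receptors, the lipoprotein receptors rose. Tlr1 stood at 31.2, 34.3 and 32.3 CPM in WT untreated libraries 1 to 3 and at 111, 115 and 110 CPM in the WT libraries given Jurkat cells for 4 h. In KO it stood at 32.9, 32.1 and 29.6 CPM untreated and at 116, 120 and 116 CPM with Jurkat cells. All 6 libraries given Jurkat cells thus lay above all 6 untreated ones, by 3.44-fold in WT (log2 1.78, SE 0.053, FDR 1.32e-22) and 3.71-fold in KO (log2 1.89, SE 0.053, FDR 3.61e-23). Tlr2, the partner of both TLR1 and TLR6, read 60.9, 61.6 and 59.2 CPM in untreated WT and 208, 209 and 197 CPM after Jurkat cells. In KO it read 56.3, 56.8 and 56.7 CPM untreated and 203, 191 and 197 CPM after Jurkat cells. The groups did not overlap in either genotype, and Tlr2 rose 3.38-fold in WT (log2 1.76, SE 0.041) and 3.48-fold in KO (log2 1.80, SE 0.041). Tlr6, the least abundant member, went from 5.74, 4.85 and 4.14 CPM to 9.29, 12.1 and 10.3 CPM in WT. In KO it went from 5.23, 4.66 and 4.17 CPM to 11.4, 9.82 and 10.6 CPM. It rose about as much in both genotypes, with log2 fold changes of 1.11 (SE 0.10) in WT and 1.18 (SE 0.10) in KO.

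Tlr4, the lipopolysaccharide receptor, moved the other way. It held 37.1, 29.0 and 26.3 CPM in untreated WT and 12.4, 15.5 and 12.9 CPM after 4 h of Jurkat cells, and in KO 35.9, 28.2 and 30.1 CPM against 10.4, 13.1 and 11.9 CPM. It fell to 44.2% of the untreated level in WT (log2 -1.18, SE 0.12, FDR 5.72e-10) and to 37.6% in KO (log2 -1.41, SE 0.12, FDR 1.47e-11). The ratio of Tlr2 to Tlr4 within a library, which no scaling of libraries can alter, went from 2.01 ± 0.323 to 15.2 ± 1.65 in WT and from 1.82 ± 0.23 to 16.9 ± 2.45 in KO (SD, n = 3). This ratio was chosen after the values were seen. Of 10 markers of monocytes or macrophages, cells known to express Tlr2 and Tlr4, 5 rose and 3 fell in each genotype. Over all genes, 38.9% rose and 40.6% fell in WT, and 37.5% and 41% in KO. The summed level of these markers went from 4020 to 4440 CPM in untreated WT to 3510 to 3870 CPM. In KO it went from 4160 to 4790 CPM to 3610 to 3940 CPM. Their part in these changes was not tested.

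The nucleic acid receptors split. Tlr9 read 157, 155 and 174 CPM in untreated WT and 460, 563 and 433 CPM after 4 h of Jurkat cells, and in KO 155, 147 and 148 CPM against 417, 347 and 383 CPM. The treated libraries lay above the untreated ones, with log2 fold changes of 1.58 (SE 0.08, FDR 5.04e-17) in WT and 1.35 (SE 0.08, FDR 2.31e-15) in KO. Tlr7 went from 150, 134 and 128 CPM to 304, 367 and 303 CPM in WT and from 131, 103 and 105 CPM to 274, 244 and 272 CPM in KO. It too rose without overlap, 2.37-fold in WT (log2 1.24, SE 0.087) and 2.33-fold in KO (log2 1.22, SE 0.087). Plasmacytoid markers did not move as 1 block in this comparison. In WT 6 of 10 rose and 4 fell (38.9% and 40.6% of all genes), and in KO 5 rose and 4 fell (37.5% and 41%). Their summed level went from 3180 to 3240 CPM in untreated WT libraries to 4210 to 4940 CPM, and in KO from 2770 to 2940 CPM to 3410 to 3790 CPM. Of 10 B cell markers, 6 rose and 3 fell in each genotype (median log2 0.47 in WT and 0.45 in KO). Stromal markers rose for 8 of 10 genes in WT and 9 in KO, with 0 lower. Of 10 neutrophil markers, 2 rose and 5 fell in WT, and 1 rose and 5 fell in KO. Of 9 basophil or mast cell markers, 2 rose in WT and 6 in KO, with 0 lower. The part of any of these markers in the rise of Tlr7 and Tlr9 was not tested.

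Tlr3 fell where Tlr9 rose. It read 154, 137 and 132 CPM in untreated WT and 49.3, 57.5 and 51.5 CPM after 4 h of Jurkat cells, and in KO 142, 136 and 143 CPM against 49.7, 41.2 and 45.8 CPM. That is 37.5% of the untreated level in WT (log2 -1.42, SE 0.063) and 32.5% in KO (log2 -1.62, SE 0.063). Within single libraries Tlr9 and Tlr3 began at a near equal count, with a ratio of 1.16 ± 0.151 in untreated WT and 1.07 ± 0.0285 in untreated KO. After Jurkat cells the ratio was 9.17 ± 0.706 in WT and 8.39 ± 0.0285 in KO (SD, n = 3), another pair chosen after the values were seen. Tlr13, which senses bacterial ribosomal RNA, was the member nearest to no change. Its WT libraries read 71.9, 66.1 and 62.8 CPM untreated and 62.5, 70.7 and 63.4 CPM after Jurkat cells (log2 -0.03, SE 0.089, FDR 0.752), and the groups overlapped. In KO, 89.0, 72.9 and 62.1 CPM stood against 65.9, 60.1 and 58.2 CPM (log2 -0.28, SE 0.088, FDR 0.00495), also with overlap. The KO call was lost without KO untreated library 1 (log2 -0.14, FDR 0.114).

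The profilin receptors fell together. Tlr11 read 91.8, 91.0 and 92.3 CPM in untreated WT and 27.3, 28.5 and 26.4 CPM after 4 h of Jurkat cells, and in KO 78.8, 80.3 and 84.1 CPM against 27.9, 25.7 and 27.9 CPM. Tlr12 read 64.9, 69.1 and 70.8 CPM in untreated WT and 20.6, 23.9 and 22.3 CPM after Jurkat cells, and in KO 63.6, 61.1 and 64.7 CPM against 21.5, 18.6 and 21 CPM. Both genes reached about the same fraction of the untreated level, 29.9% (Tlr11, log2 -1.74, SE 0.055) and 32.6% (Tlr12, log2 -1.62, SE 0.067) in WT and 33.5% and 32.2% in KO (log2 -1.58, SE 0.055, and -1.63, SE 0.067). Markers of type 1 conventional dendritic cells, which are known to express Tlr3 and Tlr11, moved in the same direction: 7 of 10 fell and 2 rose in WT, and 8 fell and 2 rose in KO. Their summed level was 5280 to 5660 CPM in untreated WT and 3950 to 4220 CPM after Jurkat cells, and in KO 5390 to 5530 CPM against 3610 to 4110 CPM. Most of that sum came from Irf8 (2210 CPM in untreated WT) and Wdfy4 (1740 CPM), while Xcr1 and Clec9a held 89.9 and 151 CPM. Type 2 markers fell as well, 8 of 10 in WT and 7 of 10 in KO, with 2 higher in each. Over all genes, 40.6% fell and 38.9% rose in WT, and 41% fell and 37.5% rose in KO. The part of type 1 and type 2 markers in the falls of Tlr3, Tlr11 and Tlr12 was not tested. Of 15 T-lineage genes tested, which mark the lineage of Jurkat cells, 12 rose and 3 fell in WT (median log2 2.34), and 9 rose and 4 fell in KO (1.94). Their summed level, of which Cd28 held 52.9 CPM in untreated WT, was 86.2 to 91.7 CPM in untreated WT and 160 to 193 CPM after Jurkat cells, and in KO 98.8 to 106 CPM and 143 to 160 CPM. How many receptor reads came from the human cells was not tested.

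The scaling sets the size of these changes. With total counts in place of TMM, the median of all genes moved to -0.42 in WT and -0.37 in KO at 4 h of Jurkat cells. The 5 rises and 4 falls kept their direction and their calls in both genotypes, with Tlr1 at 1.38 and Tlr11 at -2.14 in WT. Tlr13 alone changed its call in WT under that scaling, to -0.44 (FDR 3.88e-05), which is close to the shifted median. Of all genes called, the share that was higher was 48.9% with TMM and 29% with total counts in WT, and 47.7% and 29.2% in KO.

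**Figure D2:**
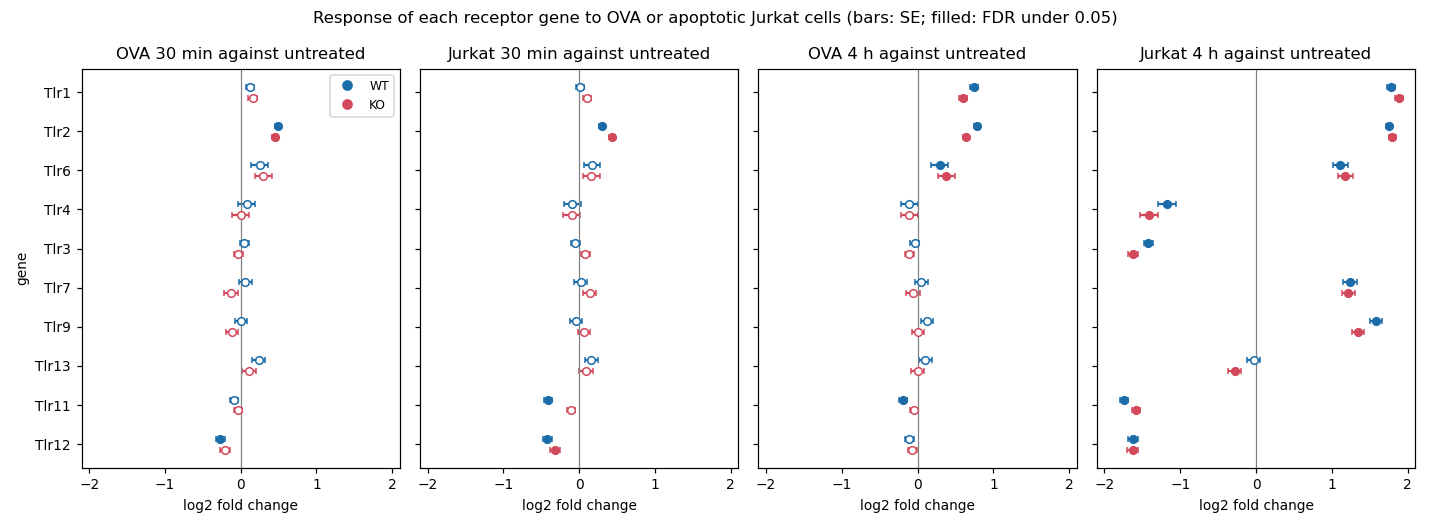
Log2 fold change of each receptor gene against untreated cells of the same genotype (horizontal axis, bars SE) in 4 panels by treatment, WT in blue and KO in red, filled where FDR is under 0.05. Changes after 4 h of Jurkat cells reached 1.89 (Tlr1, KO) and -1.74 (Tlr11, WT), while Tlr2 was the member called in all 8 comparisons.

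The order of the family changed with these shifts. In WT cells given Jurkat cells for 4 h, Tlr9 was at 140 ± 19.7 CPM per kb, followed by Tlr7 (83.3), Tlr2 (67.9) and Tlr1 (37.0), and these neighbours did not overlap. Tlr13 (16.1) now stood above Tlr3 (12.0), Tlr11 (8.54), Tlr12 (7.01), Tlr4 (3.34) and Tlr6 (2.87 CPM per kb). Libraries of the last pair overlapped (3.04 to 3.80 against 2.53 to 3.29), and with lengths over all annotated exons Tlr6 came before Tlr4. Tlr1 had moved from place 8 to place 4, and Tlr3 from place 3 to place 6.

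**Figure D3:**
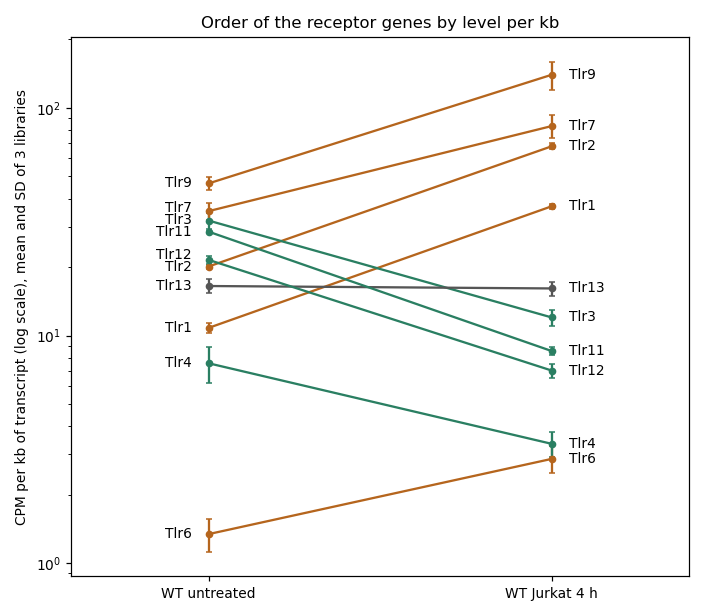
Level per kb of transcript on a log scale (mean and SD of 3 libraries) in WT untreated cells and WT cells given Jurkat cells for 4 h, 1 line per receptor gene, brown where the level rose over 1.5-fold, green where it fell by as much and grey for Tlr13. The line of Tlr1 crosses those of Tlr3, Tlr11, Tlr12 and Tlr13, and that of Tlr2 crosses those of Tlr3, Tlr11 and Tlr12.

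OVA for 4 h raised the genes of the lipoprotein receptors. Tlr1, Tlr2 and Tlr6 rose in both genotypes (3 of 10 higher, against 11.9% of all genes in WT and 5.94% in KO). Tlr11 fell in WT (1 of 10 lower, against 11.7% of all genes) and no member fell in KO (5.69% of all genes). Tlr2 read 108, 106 and 98.6 CPM in WT and 89.1, 85.1 and 89.6 CPM in KO, each above its own untreated libraries (log2 0.78 and 0.64, SE 0.041 for both, FDR 1.25e-14 and 5.27e-12). Tlr1 read 55.3, 56.2 and 51.7 CPM in WT and 48.8, 46.7 and 47.5 CPM in KO, again clear of the untreated libraries (log2 0.74 and 0.60, SE 0.053 for both). Tlr6 changed less, with WT libraries at 6.18, 5.81 and 6.04 CPM (log2 0.29, SE 0.11, FDR 0.0443) and KO libraries at 6.23, 5.80 and 6.19 CPM (log2 0.38, SE 0.11, FDR 0.0186). The WT call of Tlr6 was lost without any one of the WT libraries except untreated library 1 (FDR 0.0656 to 0.284), and with the compared groups fitted alone (FDR 0.0969). Its KO call was lost without OVA library 1 or 3 or untreated library 2 or 3 (FDR 0.0546 to 0.12). Tlr11 stood at 80.1, 82.0 and 79.4 CPM in WT, below the untreated libraries (log2 -0.19, SE 0.05, FDR 0.00672). Tlr7 and Tlr9, which rose most among endosomal receptors with Jurkat cells, had log2 differences of 0.05 (SE 0.087) and 0.12 (SE 0.079) with OVA at 4 h in WT, and -0.06 and 0.00 in KO. Tlr3, Tlr4, Tlr12 and Tlr13 were not called in either genotype. Markers of monocytes or macrophages were higher with OVA at 4 h for 5 of 10 genes in WT (summed 4610 to 4930 CPM, against 4020 to 4440 CPM untreated) and 2 of 10 in KO (4710 to 4780 against 4160 to 4790 CPM). Of 10 markers of type 1 conventional dendritic cells, 5 were lower and 1 higher in WT, and 4 lower and 0 higher in KO. Of 10 type 2 markers, 5 were lower and 2 higher in WT, and 2 lower and 2 higher in KO. The part of these markers in the rise of Tlr1 and Tlr2 or the fall of Tlr11 was not tested.

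Tlr1 and Tlr6 are neighbours on chromosome 5, and their near-identical stretches bear on the reading of their counts. Of 2976 runs of 50 bases in the Tlr1 transcript, 15.3% also occur in Tlr6, and 12.6% of those in Tlr6 occur in another gene, Tlr1 among them. The longest stretch shared without a mismatch is 229 bases. Reads from such stretches cannot be assigned by sequence alone, so the levels of both genes, and Tlr6 above all as the lower one, are uncertain. Of the other 8 genes none shared such a run except Tlr3 (1.56%, with an overlapping gene on the opposite strand). The ratio of Tlr1 to Tlr6 was not constant: it was 6.77 ± 1.21 in untreated WT, 9.06 ± 0.567 after OVA at 4 h and 10.7 ± 1.24 after Jurkat cells at 4 h.

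At 30 min the changes were smaller and Tlr2 rose in every case. In WT, OVA raised 1 member (5.51% of all genes were higher) and lowered 1 (5.15% lower), and Jurkat cells raised 1 (14.2%) and lowered 2 (14.5%). In KO, OVA raised 1 member (1.88% of all genes) and lowered none (also 1.88%), while Jurkat cells raised 1 (8.72%) and lowered 1 (8.26%). Tlr2 read 85.6, 85.8 and 83.8 CPM in WT given OVA and 76.4, 77.2 and 70.7 CPM in WT given Jurkat cells. KO libraries held 77.2, 76.1 and 79.5 CPM of it after OVA, and 75.0, 73.7 and 80.4 CPM after Jurkat cells. Every treated library was above every untreated library of its genotype, with log2 fold changes of 0.49 (OVA) and 0.30 (Jurkat) in WT and 0.45 and 0.43 in KO (SE 0.041, 0.041, 0.042 and 0.041). Tlr12 fell in WT with both materials. OVA left it at 50.5, 59.8 and 59.1 CPM (log2 -0.27, SE 0.061), and Jurkat cells left it at 47.3, 53.1 and 52.7 CPM (log2 -0.42, SE 0.061). In KO it read 46.8, 50.6 and 53.9 CPM with Jurkat cells (log2 -0.32, SE 0.061, FDR 0.000376), again below the untreated libraries, and with OVA it had a log2 difference of -0.21 (SE 0.063, FDR 0.0529). That difference of Tlr12 was called with a replicate block (FDR 0.02) and under 5 other alternatives, DESeq2 and the compared groups alone among them, and in none of the fits that left out 1 library. Tlr11 fell with Jurkat cells in WT, to 66.7, 74.9 and 66.0 CPM (log2 -0.41, SE 0.051, FDR 6.2e-07). In KO it read 70.8, 74.8 and 79.6 CPM, which overlapped the untreated libraries (log2 -0.11, SE 0.051, FDR 0.139). Some members not called were called without 1 library. Without WT untreated library 1 these were Tlr6 with OVA (log2 0.38, FDR 0.024) and with Jurkat cells (0.30, FDR 0.0497) and Tlr13 with OVA (0.30, FDR 0.0433), the last also without WT OVA library 3 (0.30, FDR 0.0426). Without KO untreated library 1 they were Tlr7 (0.26, FDR 0.0415) and Tlr13 (0.23, FDR 0.0466) with Jurkat cells.

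Given at the same time, the materials were also compared directly, with the genotypes averaged. At 30 min the members that Jurkat cells left lower than OVA did were Tlr2 (log2 -0.10, SE 0.029), Tlr11 (-0.20, SE 0.036) and Tlr12 (-0.13, SE 0.044), against 14.4% of all genes lower, and none was higher (15.5% of all genes). The Tlr12 call, at FDR 0.0287, was lost without any one of 6 libraries: Jurkat library 1 of either genotype, KO OVA library 1 or 2, and WT OVA library 2 or 3 (log2 -0.12 to -0.10, FDR 0.0591 to 0.101). Tlr1 (log2 -0.09, FDR 0.0975) was called without KO Jurkat library 1 (FDR 0.0419) or WT OVA library 2 (FDR 0.033). The 4 h comparison separated all 10 members, 5 higher with Jurkat cells (39.4% of all genes) and 5 lower (43.2%). Of all genes called there, 47.7% were higher with TMM and 27.4% with total counts. The largest differences were in Tlr9 (log2 1.41, SE 0.057), Tlr7 (1.23, SE 0.062) and Tlr1 (1.17, SE 0.036) on the higher side and in Tlr11 (-1.54, SE 0.039), Tlr12 (-1.54, SE 0.047) and Tlr3 (-1.44, SE 0.044) on the lower side. Tlr2 (1.07, SE 0.028) and Tlr6 (0.81, SE 0.071) were higher, and Tlr4 (-1.18, SE 0.087) and Tlr13 (-0.21, SE 0.063) lower.

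Differences between the genotypes were small, and each one called in the edgeR fit of all libraries with TMM was lower in KO. Alternative fits that called a member higher in KO are given below. Called members were 2 of 10 in untreated cells (Tlr7, Tlr11), 2 with OVA at 30 min (Tlr2, Tlr7), none with Jurkat cells at 30 min, 3 with OVA at 4 h (Tlr1, Tlr2, Tlr7) and 3 with Jurkat cells at 4 h (Tlr3, Tlr7, Tlr9). Over all genes tested, the shares lower in KO were 3.97%, 6.13%, 3.67%, 6.35% and 13.5% in the same order. The shares of genes higher in KO were 6%, 6.25%, 5.58%, 6.22% and 9.37%, and no member was among them. With Jurkat cells at 30 min, where edgeR called no member, 1 member had an unadjusted p under 0.05, and DESeq2 called none.

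Tlr7 was the member called most often. In untreated cells it read 131, 103 and 105 CPM in KO and 150, 134 and 128 CPM in WT, which overlapped (log2 -0.28, SE 0.087, FDR 0.0394). With OVA it read 115, 92.4 and 102 CPM in KO at 30 min against 150, 146 and 133 CPM in WT, and 103, 111 and 112 CPM against 148, 137 and 141 CPM at 4 h. Neither of these overlapped, with log2 differences of -0.47 (SE 0.089, FDR 0.000663) and -0.38 (SE 0.087, FDR 0.00286). With Jurkat cells at 4 h, 274, 244 and 272 CPM in KO stood below 304, 367 and 303 CPM in WT (log2 -0.30, SE 0.086, FDR 0.0111), while at 30 min the log2 difference was -0.16 (SE 0.087, FDR 0.281). The untreated call was lost without KO library 2 or 3 or WT library 1 or 2 (log2 -0.30 to -0.21, FDR 0.0732 to 0.204), and with the compared groups alone (FDR 0.0814). The Jurkat call was lost without library 2 of KO (log2 -0.25, FDR 0.0749) or of WT (-0.20, FDR 0.122). Tlr9, the other receptor linked to plasmacytoid cells, was lower in KO with Jurkat cells at 4 h (417, 347 and 383 CPM against 460, 563 and 433 CPM, log2 -0.34, SE 0.078, FDR 0.00192), with no overlap, and was still called without KO library 2 (log2 -0.28, FDR 0.0242). With OVA it had log2 differences of -0.22 at 30 min (FDR 0.0698) and -0.23 at 4 h (FDR 0.0565) by edgeR, both called by DESeq2, with no filter on low counts and with the compared groups alone. Without WT OVA library 1, Tlr9 at 30 min was also called by edgeR (log2 -0.29, FDR 0.0328).

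Markers of plasmacytoid dendritic cells moved in the same direction. Of 10, those lower in KO were 5 untreated, 7 with OVA and 4 with Jurkat cells at 30 min, and 5 with OVA and 7 with Jurkat cells at 4 h, with 1 higher in each condition. Their summed level was 2770 to 2940 CPM in KO and 3180 to 3240 CPM in WT untreated libraries, 2410 to 2790 against 3100 to 3370 CPM with OVA at 30 min, and 3410 to 3790 against 4210 to 4940 CPM with Jurkat cells at 4 h. At 30 min with Jurkat cells the KO libraries held 2930 to 3040 CPM against 3290 to 3310, and at 4 h with OVA 2750 to 2830 against 3190 to 3200 CPM. Over all genes, 3.97% were lower in KO untreated, 6.13% with OVA and 3.67% with Jurkat cells at 30 min, and 6.35% and 13.5% at 4 h. Those higher were 6%, 6.25%, 5.58%, 6.22% and 9.37% in the same order. The part of the plasmacytoid markers in the lower Tlr7 and Tlr9 was not tested. Stromal markers stood higher in KO (7 of 10 called in untreated cells, 998 to 1290 CPM summed against 789 to 895 CPM), as did those of basophils or mast cells (8 of 9, 199 to 227 CPM against 149 to 161 CPM), and their part was not tested either. Neutrophil markers were lower in KO with Jurkat cells at 4 h for 6 of 10 genes (121 to 125 against 154 to 160 CPM summed), and for 1 or 2 of 10 in the other conditions. T-lineage genes were lower in KO in that condition for 4 of 15, with none higher (median -0.36, 143 to 160 against 160 to 193 CPM summed). Untreated and with OVA at 4 h, 4 of the 15 were higher in KO and 0 lower. With OVA at 30 min 4 were higher and 1 lower, and with Jurkat cells at 30 min 2 and 3. With Jurkat cells at 4 h, 5 of 10 type 2 markers were higher in KO and 0 lower. Type 1 markers had 3 higher and 3 lower there, and those of monocytes or macrophages 1 higher and 3 lower. B cell markers were higher in KO for 3 to 5 of 10 genes in each of the 5 conditions, with none lower (95.7 to 98.2 against 85.4 to 90.5 CPM summed, untreated). The part of these markers in the genotype differences was not tested.

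The other genotype differences were each called in 1 or 2 conditions. Tlr2 was lower in KO with OVA at 4 h (89.1, 85.1 and 89.6 against 108, 106 and 98.6 CPM, log2 -0.25, SE 0.04, FDR 6.64e-05). At 30 min with OVA the KO libraries, at 77.2, 76.1 and 79.5 CPM, again lay below those of WT at 85.6, 85.8 and 83.8 CPM (log2 -0.14, SE 0.041, FDR 0.0286). That smaller difference was lost without library 1 or 2 of either genotype (FDR 0.0692 to 0.162), under scaling by total counts (FDR 0.0676) and with the compared groups alone (FDR 0.0611). Tlr1 was lower with OVA at 4 h (log2 -0.19, SE 0.052, FDR 0.0143), a call lost without KO library 2 or WT library 1 or 2 (FDR 0.0628 to 0.0776). In untreated cells Tlr11 read 78.8, 80.3 and 84.1 CPM in KO and 91.8, 91.0 and 92.3 CPM in WT, without overlap (log2 -0.18, SE 0.05, FDR 0.0212). Leaving out any one of these libraries except KO library 3 ended the call (FDR 0.0512 to 0.103). Tlr3 was lower with Jurkat cells at 4 h (log2 -0.21, SE 0.065, FDR 0.0184), with overlapping groups, and was not called without KO or WT library 2 (log2 -0.14 for both, FDR 0.155 and 0.158) or with the compared groups alone (FDR 0.0651). Tlr4, Tlr6, Tlr12 and Tlr13 were called in no condition, with log2 differences between -0.20 (Tlr4, Jurkat 4 h, SE 0.14) and 0.16 (Tlr13, untreated, SE 0.087). Without KO untreated library 3 that Tlr13 difference was called (0.27, FDR 0.0328). Tlr11 was called with OVA at 30 min without KO library 1 (log2 -0.19, FDR 0.0246), and higher in KO with Jurkat cells at 30 min without WT library 2 (0.18, FDR 0.0485). With total counts at 4 h of Jurkat cells, Tlr1 was higher in KO (0.14, FDR 0.0342) and Tlr3 was not called (-0.13, FDR 0.121), and 74.8% of all called genes were higher in KO, against 40.9% with TMM. For OVA that share was 63.8% against 50.5% at 30 min and 64.5% against 49.5% at 4 h.

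**Figure D4:**
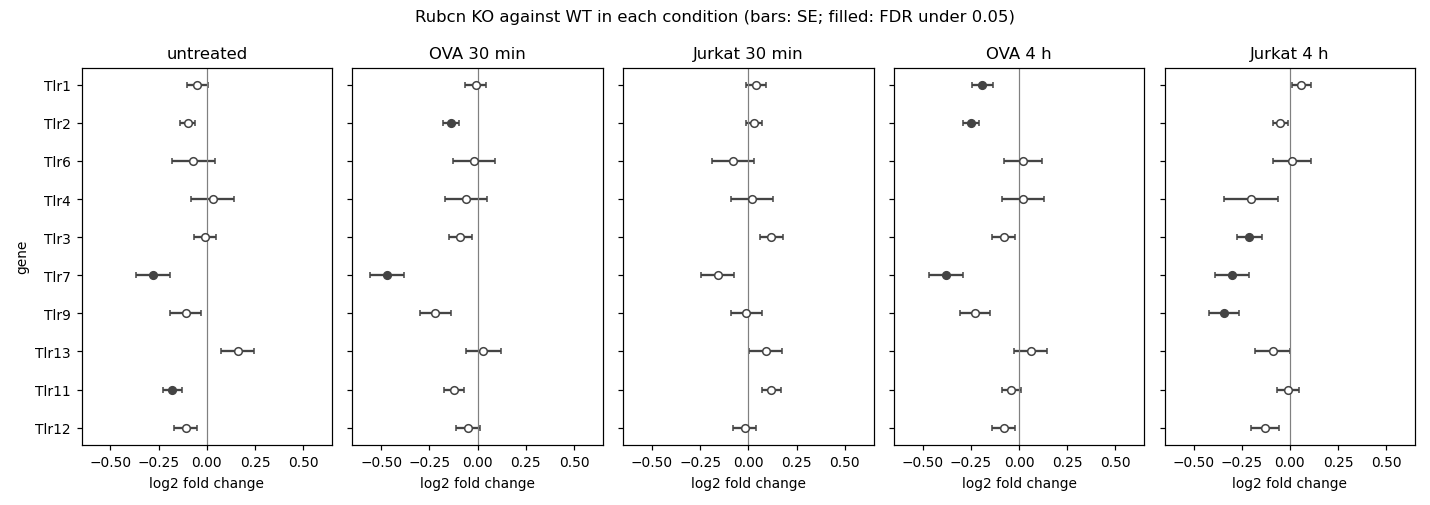
Log2 difference of KO against WT for each receptor gene (horizontal axis, bars SE) in 5 panels by condition, filled where FDR is under 0.05. All filled points lie left of 0, and Tlr7 with OVA at 30 min is farthest, at -0.47.

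Whether a response differed between the genotypes was tested as an interaction, the KO response minus the WT response. No member was called by edgeR in any of the 4 tests, where 0%, 0.00675%, 0.0405% and 4.26% of all genes were called (OVA 30 min, Jurkat 30 min, OVA 4 h, Jurkat 4 h). Unadjusted p was under 0.05 for 0, 2, 1 and 3 members in that order. The smallest was that of Tlr11 with Jurkat cells at 30 min, where the WT response of -0.41 and the KO response of -0.11 differed by 0.30 (95% interval 0.15 to 0.44, unadjusted p = 0.000295 and adjusted p = 0.291 by edgeR's quasi-likelihood F test). DESeq2 called this interaction (FDR 0.0312), in a comparison where it gave an adjusted p for 8 of the 10 members and 4760 genes, and none in the other 3 tests. Over all genes it called 0 of 14807, 22 of 4760, 25 of 13945 and 808 of 11937, against 0, 1, 6 and 631 of 14808 by edgeR. At 4 h with Jurkat cells the interaction of Tlr9 was -0.23 (95% interval -0.46 to 0.00) and that of Tlr2 was 0.04 (-0.07 to 0.16). Calls in 1 genotype alone, such as Tlr13 with Jurkat cells at 4 h, are thus not shown to differ between the genotypes.

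Genes that serve the receptors were described from 3 lists, all of whose genes were tested. Accessory and trafficking genes (16) hold co-receptors, chaperones and the proteases that process endosomal receptors. With Jurkat cells at 4 h, 11 of them rose and 1 fell in each genotype (over all genes, 38.9% rose and 40.6% fell in WT, and 37.5% and 41% in KO), with a median log2 fold change of 0.39 in WT and 0.25 in KO. Cd14, a co-receptor of TLR4 and TLR2, went from 30.2 ± 1.38 to 194 ± 6.81 CPM in WT (log2 2.68, SE 0.08), and Ly96, which encodes the MD-2 subunit of the TLR4 complex, from 2.91 ± 0.153 to 10.9 ± 1.22 CPM (log2 1.91, SE 0.10). The gene that fell, named after its value was seen, was Cnpy3, which encodes a chaperone of several receptors (log2 -0.65 in WT and -0.57 in KO). With OVA at 4 h, 4 of the 16 rose in WT (11.9% of all genes) and 1 in KO (5.94%, so near the background), Cd14 to 105 ± 13.1 CPM in WT (log2 1.79, SE 0.079).

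Adaptors and kinases (23 genes) carry the signal. With Jurkat cells at 4 h, 16 rose and 5 fell in WT, and 15 rose and 5 fell in KO, around a median of 0.32 and 0.28. Over all genes, 38.9% rose and 40.6% fell in WT there, and 37.5% and 41% in KO. Myd88, the adaptor of all these receptors except TLR3, went from 130 ± 3.82 to 416 ± 15.8 CPM in WT (log2 1.68, SE 0.046), and Ikbke, a kinase upstream of interferon regulatory factors, from 18.4 ± 1.12 to 141 ± 5.19 CPM (log2 2.94, SE 0.071). Those that fell in both genotypes were Tab1, Tirap, Irak1, Irak4 and Irf3, named here after their values were seen. Feedback genes (11), which restrain the signal, moved most: 9 rose and 2 fell in each genotype, with a median of 2.52 in WT and 2.64 in KO. Nfkbia, the inhibitor of NF-kB, went from 92.5 ± 3.60 to 1140 ± 26.7 CPM in WT (log2 3.62, SE 0.057), and Tnfaip3, a ubiquitin-editing enzyme, from 58.1 ± 0.621 to 1110 ± 67.8 CPM (log2 4.25, SE 0.072). The falls in WT, again named after their values were seen, were Sigirr (log2 -2.21), an inhibitory member of the receptor superfamily, and Cyld (-0.35). With OVA at 4 h, 8 of the 11 rose in both genotypes, around medians of 0.63 in WT and 0.50 in KO. In WT 1 feedback gene fell, and in KO 0. Of the 23 adaptors and kinases, 7 rose and 1 fell in WT with OVA at 4 h, and 5 rose and 1 fell in KO. Over all genes with OVA at 4 h, 11.9% rose and 11.7% fell in WT, and 5.94% and 5.69% in KO.

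Between the genotypes these lists held more lower than higher calls in KO with OVA at both times and with Jurkat cells at 4 h. In untreated cells 3 of 16 accessory genes and 2 of 23 adaptors and kinases were lower, 1 accessory gene was higher and no feedback gene was called. At 30 min with OVA, 3 accessory, 7 adaptor and kinase and 3 feedback genes were lower and 1 accessory gene was higher. At 30 min with Jurkat cells 2 accessory genes were lower, no adaptor or kinase was called, and 1 feedback gene was lower and 1 higher. Over all genes, the shares lower in KO were 3.97%, 6.13% and 3.67% in the same order, and those higher 6%, 6.25% and 5.58%. With OVA at 4 h, the condition in which Tlr1 and Tlr2 were lower, 8 of 11 feedback genes, 7 of 23 adaptors and kinases and 4 of 16 accessory genes were lower and none was higher (over all genes, 6.35% lower and 6.22% higher). The medians were -0.35, -0.09 and -0.10, against 0 over all genes. Nfkbia averaged 154 ± 8.17 CPM in KO against 209 ± 14.4 CPM in WT (log2 -0.44, SE 0.051), and Tnfaip3 85.1 ± 3.11 against 121 ± 8.20 CPM (log2 -0.51, SE 0.065). Irf7, the interferon regulatory factor that TLR7 and TLR9 engage in plasmacytoid cells, averaged 126 ± 5.87 CPM in KO against 261 ± 10 CPM in WT (log2 -1.05, SE 0.15). It was also lower in untreated cells (74.3 ± 1.90 against 157 ± 9.36 CPM, log2 -1.08, SE 0.15). With Jurkat cells at 4 h, 7 of 16 accessory genes were lower in KO and none higher, 8 of 23 adaptors and kinases were lower and 1 higher, and 2 of 11 feedback genes were lower and 1 higher, around medians of -0.05, -0.09 and -0.02 (over all genes, 13.5% lower, 9.37% higher and a median of -0.01). The accessory genes that were lower were led by Cd180, a TLR-like receptor (360 ± 25.9 against 486 ± 42.6 CPM, log2 -0.43, SE 0.058), and Slc15a4, an endosomal transporter needed for TLR7 and TLR9 signalling (196 ± 6.24 against 230 ± 14 CPM, log2 -0.23, SE 0.041). Unc93b1, the carrier of endosomal receptors out of the endoplasmic reticulum, was lower in untreated KO cells (842 ± 22.7 against 912 ± 21.2 CPM, log2 -0.12, SE 0.034). The interaction was called for 1 gene of the 3 lists, Ap3b1 with Jurkat cells at 4 h (log2 -0.22, SE 0.057, FDR 0.025).

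**Figure D5:**
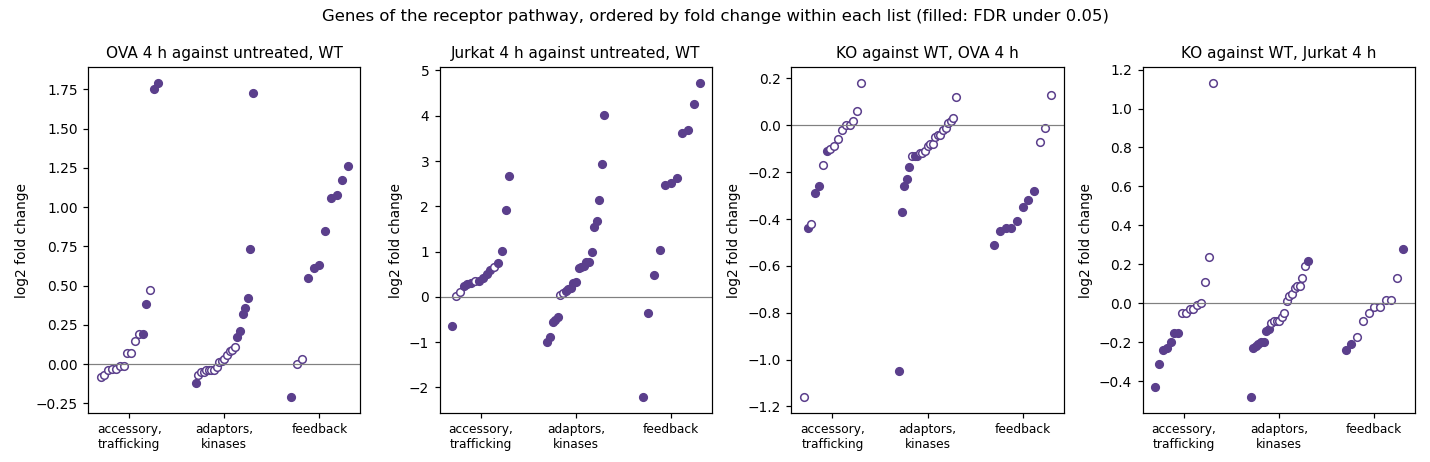
Log2 fold change (vertical axis) of each gene of the accessory, adaptor and feedback lists, ordered by value within a list, in 4 comparisons, each with its own scale and filled where FDR is under 0.05. With Jurkat cells at 4 h, 9 of 11 feedback genes lie above 0, and with OVA at 4 h 8 of 11 feedback genes are filled below 0 in KO against WT.

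Other genes followed the receptors closely across the 10 group means. By Pearson correlation of log2(CPM + 0.5), the 2 genes nearest to Tlr1 were Fas (0.998) and Sod2 (0.9977), those nearest to Tlr2 were Tnip3 (0.9946) and Rab20 (0.9911), those nearest to Tlr9 were Azi2 (0.9986) and Sp140 (0.9984), and those nearest to Tlr11 were Fbxo48 (0.9987) and Shprh (0.9986). These 4 receptor genes had the widest range of group means. The values describe 10 points that share libraries and depth, and the pair of groups given Jurkat cells for 4 h stands apart from the others in each of the 4 genes. Of all genes, 7.05%, 3.83%, 14.4% and 16.5% correlated above 0.95 with Tlr1, Tlr2, Tlr9 and Tlr11.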

How the data were processed

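RNA-seq of 30 libraries (10 groups of 3) was analysed from the gene counts that the authors deposited. Per the submitters' processing notes, which give no roles, the tools included STAR 2.5 and Subread featureCounts 1.5.0-p1, with build mm10. The annotation, strand setting and treatment of multiply mapped or human reads were not given in the sources used here. Genes were kept by edgeR's filterByExpr (14808 of 25611, holding 99.99% of counts) and scaled by TMM. One edgeR 4.0.16 quasi-likelihood fit in R 4.3.3 held a mean per group, with Benjamini-Hochberg adjustment over all genes tested and calls at FDR under 0.05. Depth was 9.73 M to 51.6 M counts per library. Replicates differed by more than sampling noise (chi-square per degree of freedom 2.28 to 134, the highest with KO library 2 of Jurkat cells at 4 h). Code was tested on simulated data.

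All 10 members were named. Of each pathway list, up to 2 called genes of smallest p were named per comparison, and likeness was given for the 4 members of widest range. Members and lists were chosen with earlier results of these data known. Exon lengths came from GENCODE M21. Alternatives were DESeq2 1.42.0, other scalings and filters, a replicate block, the compared groups alone and leaving out each library.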

Additional observations from a re-analysis of the deposited data

How the results depend on the processing

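Of 190 pairs of a receptor gene and a comparison, 57 were called, 47 of them under every alternative run, and 10 were lost in at least 1. Of the 133 not called, 15 were called in at least 1, and 0 called values reversed. Of the 19 called responses to Jurkat cells at 4 h, 18 held under every alternative, the exception being Tlr13 in KO.

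Numbers of members called changed as follows, all fits included. For KO against WT it was 1, in place of 2, in untreated cells with the compared groups alone. With OVA at 30 min it was 1 under total counts and 3 with no filter or DESeq2, in place of 2. With OVA at 4 h it was 4, in place of 3, with no filter, the compared groups alone or DESeq2, and with Jurkat cells at 4 h 2, in place of 3, with the compared groups alone. In WT it was 3, in place of 2, for OVA at 30 min with DESeq2, 3, in place of 4, for OVA at 4 h with the compared groups alone, and 10, in place of 9, for Jurkat cells at 4 h under total counts. For OVA at 30 min in KO it was 2 (Tlr2 and Tlr12), in place of 1, under a replicate block, total counts, no filter on low counts, at least 5 CPM in 3 libraries, the compared groups alone and DESeq2. The Jurkat interaction at 30 min gave 1 under DESeq2 in place of 0. Leaving out 1 library gave 0 to 2 for KO against WT untreated, 1 to 2 with OVA and 0 to 1 with Jurkat cells at 30 min, and 2 to 3 with OVA and 1 to 3 with Jurkat cells at 4 h. For responses it gave 2 to 4 (OVA 30 min), 3 to 4 (Jurkat 30 min) and 3 to 4 (OVA 4 h) in WT, and 2 to 4 (Jurkat 30 min), 2 to 3 (OVA 4 h) and 9 to 10 (Jurkat 4 h) in KO. For Jurkat cells against OVA at 30 min it gave 2 to 3. The cause was not tested.

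Same-numbered libraries did not deviate together (correlations of -0.12 to 0.11 between genotypes and -0.06 to 0.15 between treatments, with every pair over 0.1 in 0 comparisons). A replicate block gave 2 members called for OVA at 30 min in KO, in place of 1, and 12 in place of 6 genes for the OVA interaction at 4 h.

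Counts over all genes moved by over 1.5 times with the compared groups alone, to 891 from 1370 (KO against WT, Jurkat 30 min), 833 from 1578 (OVA 30 min, WT), 246 from 558 (OVA 30 min, KO), 1460 from 2514 (Jurkat 30 min, KO) and 337 from 631 (interaction, Jurkat 4 h). The Jurkat interaction at 30 min, 1 gene, became 7 with no filter and 22 with DESeq2, which gave an adjusted p for 4760 genes there. The OVA interaction at 4 h, 6 genes, became 11 with no filter, 10 with at least 5 CPM and 25 with DESeq2. Leaving out 1 library gave as few as 173 of 558 genes (OVA 30 min, KO, without KO OVA library 2) and up to 81 in place of 1 (Jurkat interaction at 30 min, without KO Jurkat library 2). Of all called genes in the Jurkat interaction at 4 h, 76.8% were positive under total counts and 40.3% under TMM. Total counts moved 59 of 100 receptor group levels by over 1 SD, among them all 20 of Jurkat cells at 4 h, and DESeq2 size factors moved 8. Depth limits Tlr6 most, with 67 counts in the shallowest library.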
